A study of Mus musculus with 12 samples.

Results

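The antigen receptor loci are the gene clusters from which lymphocytes assemble their T cell and B cell receptors. Open chromatin at 5 of them was described in mouse T cells, from the peaks of 12 ATAC-seq libraries merged wherever they shared at least 1 bp. Of 76882 merged regions, 245 lay in these clusters, on the mm10 build. There were 96 in the T cell receptor alpha and delta cluster (Tra/Trd, chromosome 14, 52.4 to 54.23 Mb) and 44 in the beta cluster (Trb, chromosome 6, 40.89 to 41.56 Mb). The gamma cluster (Trg, chromosome 13, 19.17 to 19.36 Mb) held 16, the immunoglobulin heavy chain cluster (Igh, chromosome 12, 113.25 to 116.01 Mb) held 81 and the kappa cluster (Igk, chromosome 6, 67.55 to 70.73 Mb) held 8. The rule for members uses position alone and no peak value, though the loci were picked with earlier results of these data known.

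The study transferred CD4 T cells with a transgenic receptor for influenza hemagglutinin (6.5TCR) into Aire-HA mice, and sorted T cell subsets from the bone marrow 14 days later to compare their chromatin. Cells were of strain Balb/c, and each of the 6 groups had 2 libraries. The iTreg cells were regulatory T cells induced in culture from wild-type cells and sorted as CD25+ LAP+, LAP being the propeptide of TGF-beta. Donor Treg were transferred 6.5TCR cells (CD45.2+) that had become regulatory, sorted as CD25+ LAP+, and donor Tconv were those that had not, sorted as CD25-. Host pTreg and host tTreg were regulatory cells of the host, sorted as CD25+ CTLA4+ without and with Nrp1, and labelled CD45.1+ CD45.2+. Host Tconv were conventional CD25- cells of the host, labelled CD45.1+ CD45.2- and called WT (wild type) in their titles. The titles do not say how this WT label relates to the Aire-HA mice that received the cells. The labels give neither the age of the mice nor whether the 2 libraries of a group came from separate animals. They also do not say which gene segments the 6.5TCR transgene holds, or whether donor cells could still rearrange their own segments. Reads from a transgene copy and from the same endogenous segment cannot be told apart in these lists.

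Receptor genes are cut and joined from separate V, D and J segments, which then splice to a constant (C) segment. The RAG recombinase acts only on segments in open chromatin, at a recombination signal beside each segment, made of a heptamer, a spacer and a nonamer. The delta genes lie inside the alpha cluster, between the V alpha and J alpha segments, and a V alpha to J alpha join deletes them from that chromosome. Alpha beta T cells express alpha and beta receptors, gamma delta T cells express the other pair, and the immunoglobulin clusters are joined in B cells.

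A recombination signal could be shown for a single member, because a promoter window of the noncoding RNA gene Gm30392 borders the delta V segment Trdv2-2 (chr14:53960993-53961602). The window runs the other way, and its downstream end lies at the base after Trdv2-2. The member region that holds both had no peak in iTreg or donor Treg and covered 1147 and 1105 bp in donor Tconv. It covered 234 and 0 bp in host pTreg and 0 bp in host tTreg, against 526 and 804 bp in host Tconv. The window below is chr14:53961603-53961902 on the minus strand (RefSeq, GRCm38.p6, which shares its coordinates with mm10). Capitals mark the nonamer and the heptamer.
Gm30392 promoter: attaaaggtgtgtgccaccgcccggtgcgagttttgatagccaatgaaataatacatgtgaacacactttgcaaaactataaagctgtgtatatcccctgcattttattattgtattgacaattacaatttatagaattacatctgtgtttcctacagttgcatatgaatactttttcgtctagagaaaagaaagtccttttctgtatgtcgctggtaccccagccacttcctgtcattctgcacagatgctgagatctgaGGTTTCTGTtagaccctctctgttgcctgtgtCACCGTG
Read on the other strand, the heptamer CACGGTG abutted the end of Trdv2-2 and was followed by a spacer of 23 bases and the nonamer ACAGAAACC. The pattern CACNGTG, 23 bases and ACANAAACC, searched on both strands, occurred in 1 of 32851 RefSeq promoter windows (0.00304%), while CACNGTG alone occurred in 8.95%. The pattern was chosen after the sequence was seen, so the match is a description. Of all promoter windows in the table, 2 lay in a member region, the other being that of Gm30214 among the V alpha segments.

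Presence of peaks at receptor loci was less uniform over libraries than elsewhere in these lists. Of the 245 members, 32 (13.1%) had a peak in all 12 libraries, against 27.9% of all merged regions, and 46 (18.8%) had one in a single library, against 14.9%. Members were also narrower, with a median width of 351 bp against 461 bp. The loci differed in this respect. In Trb 12 of 44 regions (27.3%) had a peak in every library, and in Tra/Trd 6 of 96 (6.25%) did. Peaks overlapped 68.2% of the 22 V segments of Trb and 71.4% of the 7 of Trg, but 16% of the 119 of Tra/Trd, 28.9% of the 121 of Igh and 0.98% of the 102 of Igk.

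The Tra/Trd cluster separated conventional from regulatory libraries. Since lists held between 28394 and 63207 peaks, levels are given as peaks in a locus per 10000 peaks of the library. Tra/Trd had 6.2 and 6.96 peaks per 10000 in donor Treg, against 15.9 and 14.4 in donor Tconv. It had 7.38 and 6.08 in host pTreg and 5.28 and 6.42 in host tTreg, against 11.9 and 11.7 in host Tconv. The iTreg libraries had 7.37 and 7.75. By this measure every regulatory library was below every conventional one, and both donor Tconv libraries were above both host Tconv libraries. Fewer cells with an open site and less openness per cell cannot be told apart in a peak list. By covered length, the means of the 4 regulatory groups lay between 489 and 599 bp in Tra/Trd per 1000000 bp under peaks, against 1196 ± 71.6 in donor Tconv and 859 ± 219 in host Tconv (SD, n = 2 here and below). The library names carry a number whose meaning the labels do not state, which was 17000 or less in the in vivo regulatory libraries and 42000 to 50000 in the conventional ones. For the in vivo groups, that number cannot be told apart from the regulatory label. The iTreg libraries had 50000 in their names and the longest lists, and their Tra/Trd level was in the range of the other regulatory libraries or just above it. As a plain count of Tra/Trd regions with a peak, however, iTreg had 43 and 49, against 40 and 49 in host Tconv, so its place depends on the measure. With all lists cut to the same number of peaks by keeping the widest, the iTreg level per 10000 stayed below both conventional groups. The part of list length in this was not tested.

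**Figure D1:**
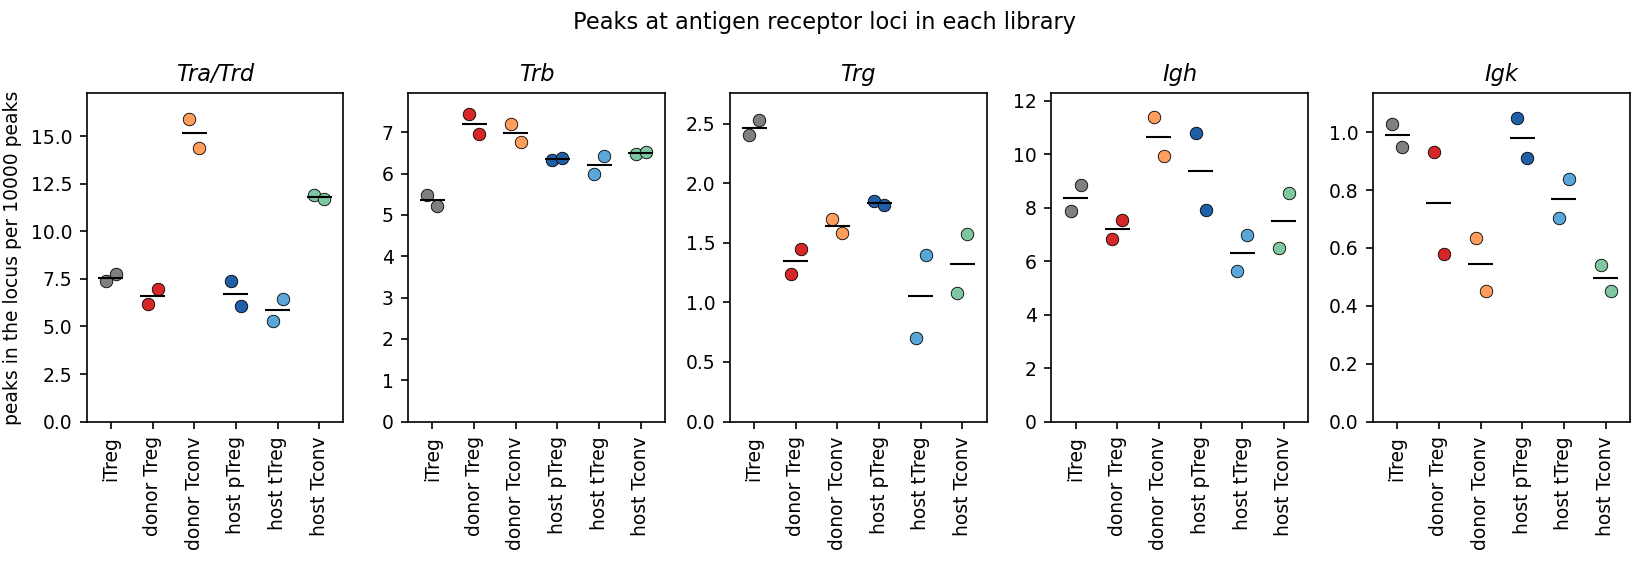
Peaks in each receptor locus per 10000 peaks of the library (vertical axis) for the 6 groups (horizontal axis); each point is a library and each line a group mean. Tra/Trd stands at 7.75 or less in the 8 regulatory libraries and at 11.7 or more in the 4 conventional ones, while regulatory and conventional libraries overlap at Trb and Igh.

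The difference at Tra/Trd lay in the V alpha and delta segments, and at the J alpha segments the host groups differed the other way in number of peaks. V alpha regions had 4.65 ± 0.00803 peaks per 10000 in donor Treg, against 11 ± 0.907 in donor Tconv. They had 4.18 ± 1.18 in host pTreg and 2.69 ± 1.32 in host tTreg, against 9.96 ± 0.414 in host Tconv, and 6.41 ± 0.103 in iTreg. J alpha regions had 1.99 ± 0.2 in host pTreg and 2.53 ± 0.413 in host tTreg, against 0.72 ± 0.254 in host Tconv. The donor Treg level there was 1.34 ± 0.573, against 1.09 ± 0.048 in donor Tconv, a difference within the spread of the donor Treg libraries, and 0.738 ± 0.0747 in iTreg. By covered length per 1000000 bp under peaks, the host groups overlapped at J alpha. The values were 261 ± 66.5 bp in host pTreg, 237 ± 39.9 in host tTreg and 202 ± 114 in host Tconv. Donor Treg had 238 ± 30.7 there, below the 329 ± 24.3 of donor Tconv, and iTreg 148 ± 48.3. These levels are a description, with no test. For the presence of a peak, 2 libraries against 2 cannot give a p below 1 in 3. Comparisons of 2 groups are therefore counts of regions found in one group alone, meaning that both its libraries had a peak there and the other group's libraries had none.

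**Figure D2:**
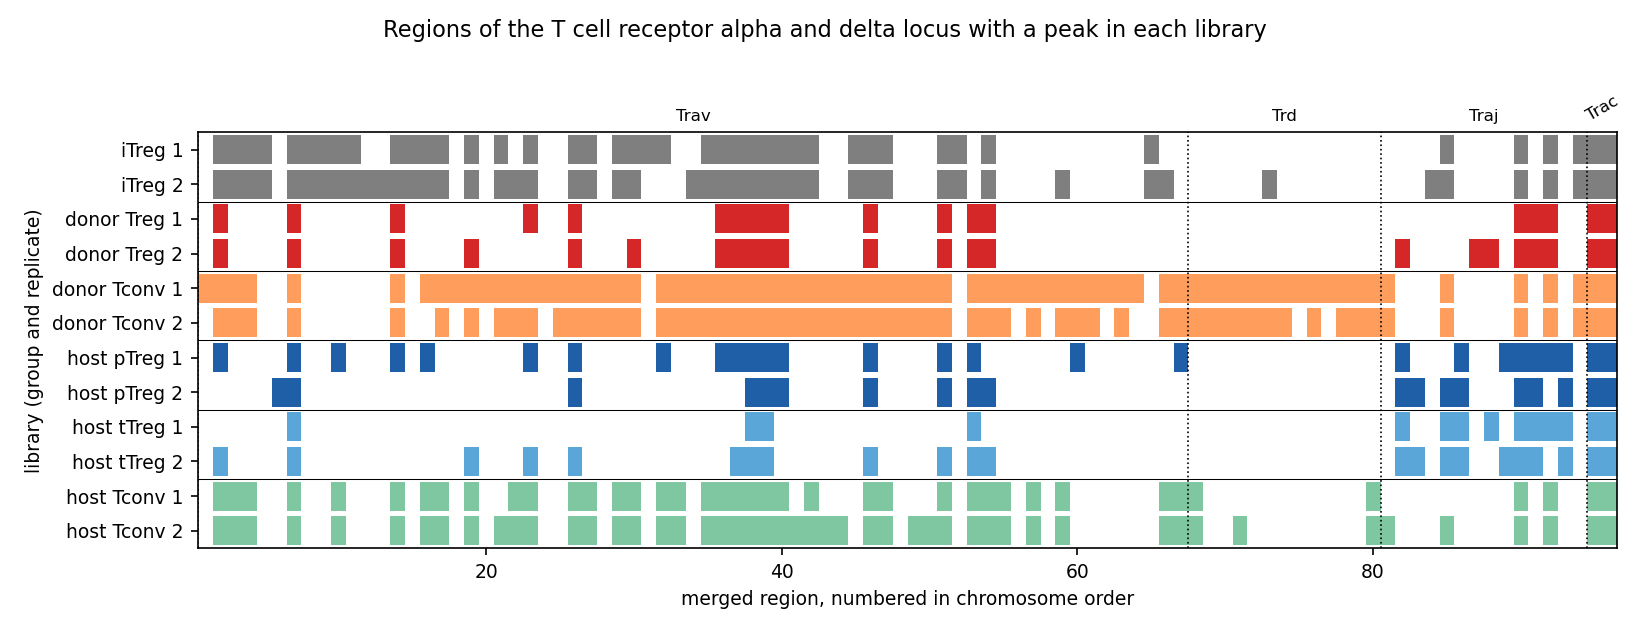
Presence of a peak (filled block) in each library (rows) at the 96 merged regions of Tra/Trd, in chromosome order from V alpha over the delta segments to J alpha and C alpha (columns, not to genomic scale). In the V alpha part blocks are sparse in the in vivo regulatory libraries and dense in the iTreg and conventional ones, all 13 delta regions are filled in donor Tconv replicate 1, and in the J alpha part the host regulatory libraries are filled at regions that are empty in host Tconv.

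Among V alpha segments, 3 regions had a peak in all libraries, at Trav2, Trav13-1 and Trav14-1. The one at Trav14-1 (chr14:53553148-53554616) covered 502 and 826 bp in iTreg, 798 and 979 bp in donor Treg, 1072 and 1423 bp in donor Tconv, 815 and 766 bp in host pTreg, 639 and 921 bp in host tTreg, and 845 and 1312 bp in host Tconv. Both donor Treg lengths were below both donor Tconv lengths and both host pTreg lengths below both host Tconv lengths, while host tTreg overlapped host Tconv. Most other V alpha regions did not have such constancy, and 45 of the 67 had no peak in any of the 6 in vivo regulatory libraries. The share of all merged regions without a peak in those libraries was not counted, so the 45 cannot be set against a background. Several Trav names with "d" or "n" denote near-identical copies within the cluster, so peaks there may be misassigned between copies.

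Donor Treg set against donor Tconv asks what differed between transferred cells that did and did not become regulatory. No V alpha region had peaks in both donor Treg libraries alone, and 30 of 55 with a peak in any of the 4 libraries (54.5%) had them in both donor Tconv libraries alone. Over all loci the counts were 2 of 185 (1.08%) in donor Treg, with 2.41% of all merged regions, and 73 of 185 (39.5%) in donor Tconv, with 19.9% of all merged regions. Those in donor Tconv alone included Trdv2-2 (1147 and 1105 bp), Trdv2-1 (548 and 514 bp) and a region 1527 bp from Trav21-dv12, a V segment usable in alpha or delta chains. All of these had 0 bp under peaks in donor Treg. With all lists cut to the same number of peaks by keeping the widest, the shares were 7.87% in donor Treg (7.82% of all regions) and 18% in donor Tconv (9.43% of all regions).

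Host regulatory cells set against host Tconv gave the same direction at V alpha. No V alpha region had peaks in both host pTreg or both host tTreg libraries alone. In host Tconv alone there were 16 of 42 (38.1%) against host pTreg and 22 of 40 (55%) against host tTreg. Over all loci the counts against host pTreg were 10 of 153 in host pTreg (5.51% of all merged regions) and 22 of 153, or 14.4%, in host Tconv (11.5% of all). Against host tTreg they were 6 of 140 in host tTreg (3.86% of all) and 31 of 140, or 22.1%, in host Tconv (15.2% of all). The host regulatory libraries carry another run code (DR31) than the host Tconv libraries (BW13), so here the groups and the code cannot be told apart. The donor groups share code BW13. With equal list lengths the excess over all loci in host Tconv was gone. Host pTreg alone then had 11 of 81 members (13.6%, with 8.85% of all) and host Tconv alone 9 (11.1%, with 9.33% of all). Host tTreg alone had 8 of 77 (10.4%, with 9.11% of all) and host Tconv alone 8 (10.4%, with 10.7% of all). The V alpha counts in host Tconv alone were then 6 against host pTreg and 5 against host tTreg.

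Peaks at the delta segments beyond Trdv2-2 were mostly in donor Tconv. The delta V segments Trdv2-1 and Trdv2-2 were counted with the V alpha part, and their regions had peaks in both host Tconv libraries too. Of the 13 regions that lie beyond Trdv2-2 and before the J alpha segments, the 6 in vivo regulatory libraries had a peak at none and the iTreg libraries at 0 and 1. Donor Tconv had peaks at 13 and 11 of them, against 2 and 3 in host Tconv. That is 2.62 ± 0.194 peaks per 10000 in donor Tconv and 0.607 ± 0.0954 in host Tconv. Against donor Treg, 11 of 13 (84.6%) were in both donor Tconv libraries alone, with 19.9% of all merged regions. The share of all merged regions with no peak in any in vivo regulatory library was not counted. Donor Tconv set against host Tconv, which differ in origin and transgene, gave 8 of 13 (61.5%) in donor Tconv alone. Over all loci that comparison gave 33 of 185 (17.8%) in donor Tconv, where 4.4% of all merged regions met this count, and 2 of 185 in host Tconv, where 0.557% did. Lists of equal length left 8 of 81 (9.88%, with 2.54% of all) in donor Tconv alone and 4 in host Tconv alone.

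The delta regions included one 227 bp from the J segment Trdj2 (chr14:54137064-54137359) and one 360 bp from the constant segment Trdc (chr14:54146468-54146786). The first covered 226 and 245 bp in donor Tconv and the second 314 and 314 bp, and both had 0 bp in the 10 other libraries. The delta enhancer is known to lie between J delta and C delta, and the files do not annotate it. Upstream, regions in donor Tconv alone lay 120 bp from Trdv3 and in the gap before Trdv4. A region in Gm30392 (chr14:53991284-53991847) covered 564 and 520 bp in donor Tconv and 238 and 412 bp in host Tconv, and one 754 bp from Trdv5 covered 270 and 226 bp in donor Tconv and 227 and 228 bp in host Tconv. Neither had a peak in any regulatory library. Across all loci, 15 members had peaks in both donor Tconv libraries and in no other, which is 6.12% against 0.553% of all merged regions. Of these, 7 were delta regions and 5 V alpha regions. All 4 conventional libraries and no regulatory one had a peak at 5 members (1.22% of all merged regions), 2 of them delta regions. Both patterns were chosen after their values were seen.

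In the pair of libraries with the most similar list length, donor Tconv replicate 2 had 44350 peaks, 11 delta regions and 64 Tra/Trd regions. Host Tconv replicate 2 had 44465 peaks, 3 delta regions and 49 Tra/Trd regions. The delta peaks were narrow, with a median of 241 bp against library medians of 482 bp or more in donor Tconv. Keeping only the widest 28394 peaks of each list left 2 of the 13 delta regions, with 1 in donor Tconv alone against donor Treg and 0 against host Tconv.

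**Figure D3:**
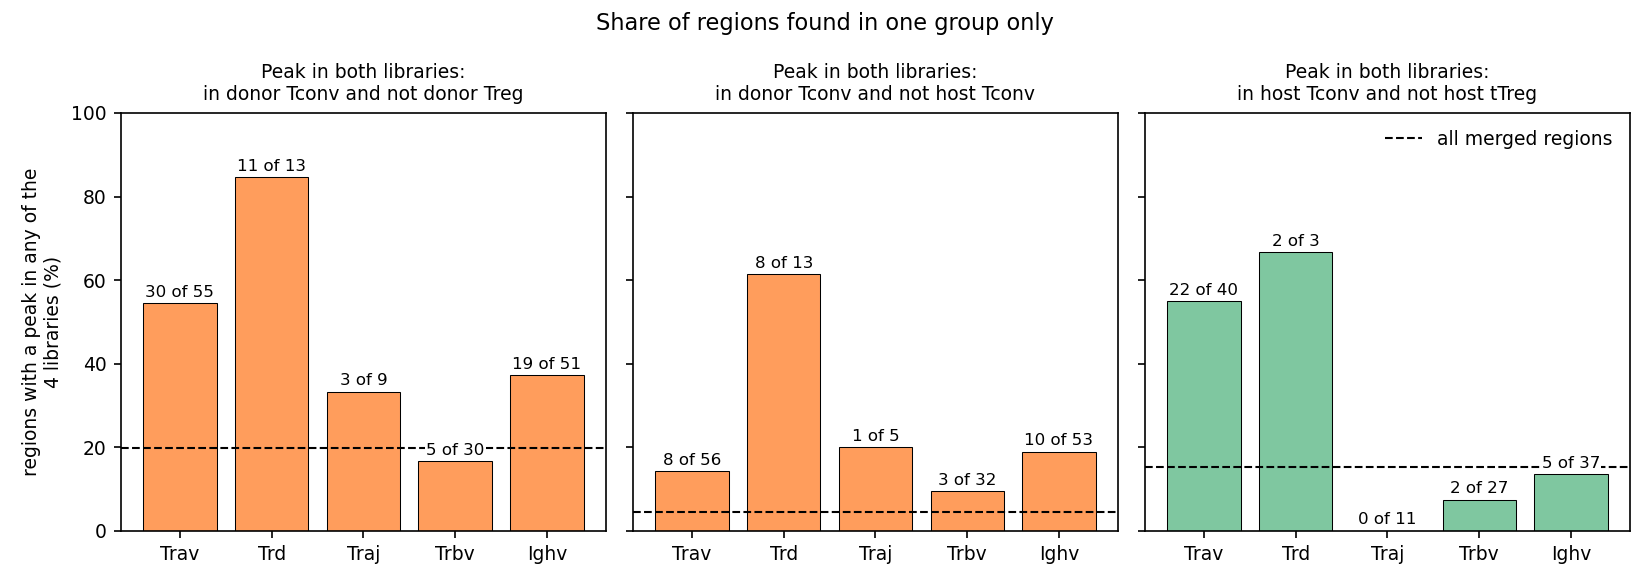
Share of the regions of each segment cluster (bars, in percent of regions with a peak in any of the 4 libraries compared, counts above the bars) that were found in one group alone; the dashed line is the share over all merged regions. The delta bars stand at 84.6% and 61.5% in the donor Tconv panels, and the J alpha bar of the right panel is at 0.

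At several J alpha segments the groups had peaks at different places. Only the region over Traj16 and Traj15 separated all in vivo regulatory from all conventional libraries. The 14 J alpha regions included 1 with a peak in every library, spanning Traj22 to Traj17 (chr14:54196465-54201925). The region over Traj16 and Traj15 (chr14:54203126-54205084) covered 1568 and 1561 bp in donor Treg, 1912 and 1731 bp in host pTreg and 581 and 1958 bp in host tTreg, against 0 bp in donor Tconv and in host Tconv. It was also without a peak in both iTreg libraries. All in vivo regulatory libraries thus had this peak, within run code BW13 as well as in DR31.

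The region over Traj40 covered 666 and 674 bp in host pTreg and 341 and 358 bp in host tTreg. The region 1 bp from Traj3 covered 354 and 306 bp in host pTreg and 270 and 780 bp in host tTreg. Both were without a peak in the 8 other libraries, donor Treg included, a pattern met by 0.118% of all merged regions and chosen after its values were seen. The host regulatory libraries carry run code DR31, and donor Treg, donor Tconv and host Tconv carry BW13. For these regions the host regulatory label and the run code cannot be told apart. A region 1124 bp from Traj52 had peaks in all host regulatory libraries and in 1 donor Treg library. Against host Tconv, 4 of 10 J alpha regions were in both host pTreg libraries alone (5.51% of all merged regions) and 4 of 11 in both host tTreg libraries alone (3.86% of all), and none was in host Tconv alone. With equal list lengths these counts were 3 in host pTreg (8.85% of all) and 4 in host tTreg (9.11% of all).

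The region over Traj2 and Traj1 (chr14:54217690-54220172), at the C alpha end of the J cluster, had another pattern. It covered 1368 and 1738 bp in iTreg and 2054 and 2139 bp in donor Tconv, and had no peak in donor Treg, host pTreg, host tTreg or host Tconv. The same libraries alone had peaks at 4 members in all (0.71% of all merged regions), a pattern also chosen after it was seen. Over Traj9 to Traj6 the length under peaks was 2211 and 2122 bp in donor Treg against 4656 and 3472 bp in donor Tconv. It was 2485 and 0 bp in host pTreg and 1040 and 0 bp in host tTreg, against 1522 and 3536 bp in host Tconv. The region 1700 bp from Traj61, the J segment farthest from C alpha, had peaks in both donor Tconv libraries (502 and 409 bp) and in host Tconv replicate 2 (209 bp). The T early alpha promoter, which opens the J alpha cluster in thymocytes, is known to lie upstream of the J alpha segments and is not annotated in the files.

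**Figure D4:**
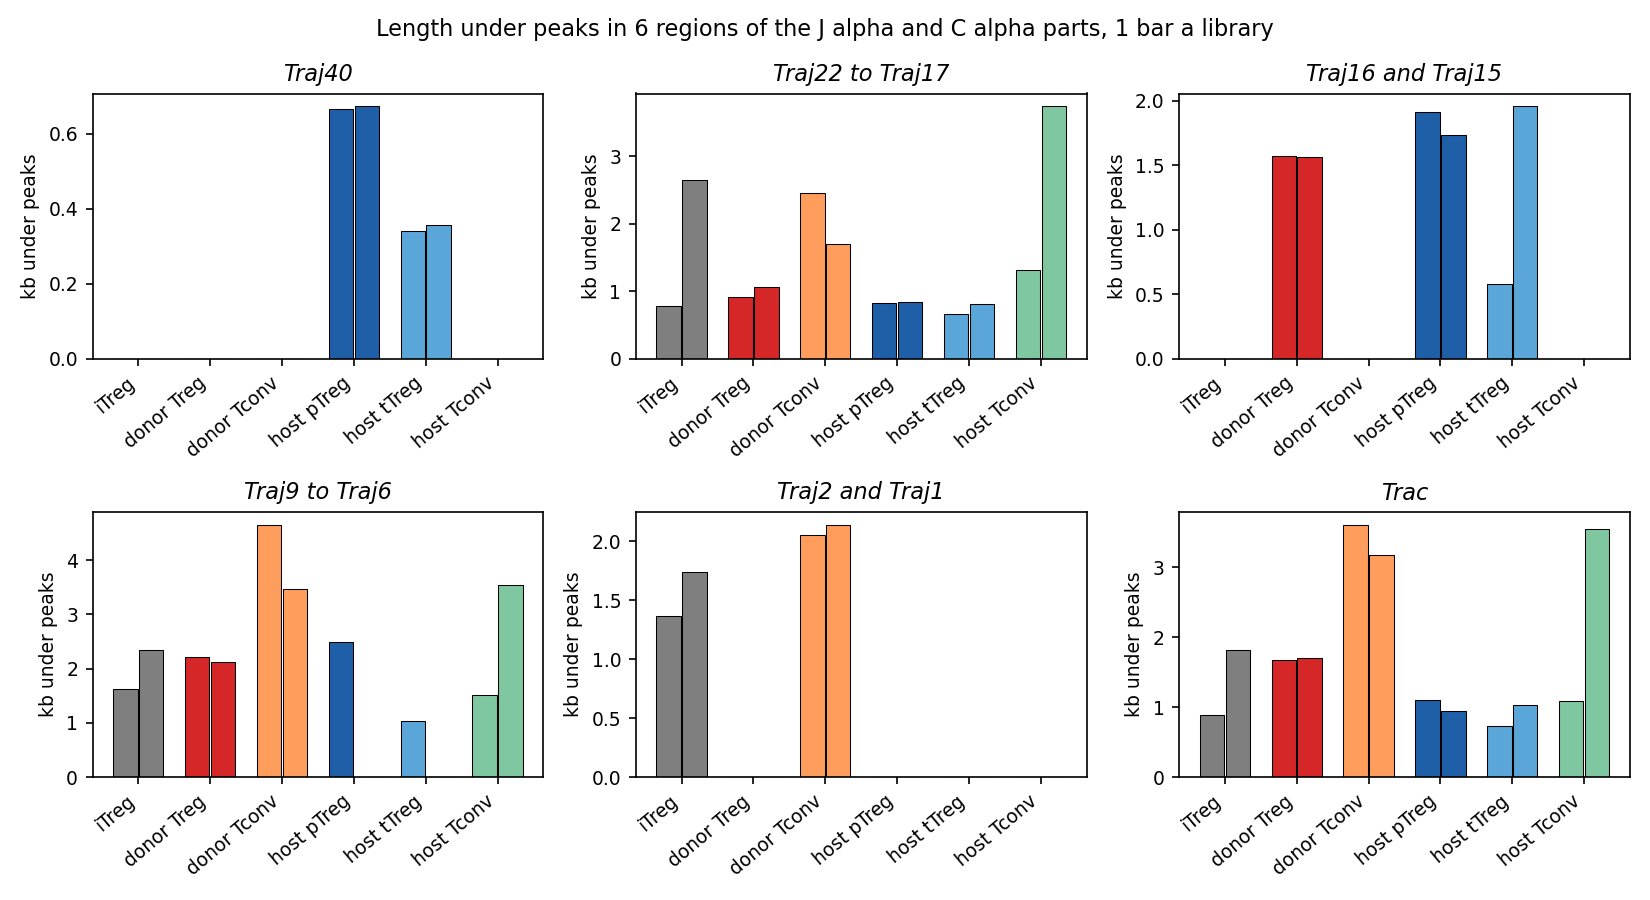
Length under peaks (vertical axis, kb) in 6 regions of the J alpha and C alpha parts, with 1 bar for each of the 12 libraries in groups along the horizontal axis. The Traj16 and Traj15 panel has bars in the donor Treg, host pTreg and host tTreg libraries only, and the Traj2 and Traj1 panel in iTreg and donor Tconv only.

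The constant alpha part was open in all 12 libraries, with 2 regions that overlap Trac. The first (chr14:54220273-54223913) covered 1682 and 1702 bp in donor Treg, against 3610 and 3173 bp in donor Tconv. It covered 1098 and 943 bp in host pTreg and 728 and 1028 bp in host tTreg, against 1087 and 3548 bp in host Tconv. The donor groups did not overlap in this length, and the 2 host Tconv libraries differed from each other by more than the regulatory groups did from host Tconv replicate 1. The second (chr14:54224124-54229035) covered 1465 to 2158 bp in 11 libraries and 4912 bp in host Tconv replicate 2.

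The beta cluster was similar in number of peaks over the groups. It had 5.35 ± 0.186 peaks per 10000 in iTreg, 7.2 ± 0.341 in donor Treg, 6.98 ± 0.311 in donor Tconv, 6.36 ± 0.0418 in host pTreg, 6.2 ± 0.306 in host tTreg and 6.5 ± 0.0313 in host Tconv. The donor groups overlapped, as did those of host tTreg and host pTreg, while both iTreg libraries were below all others. Of 37 V beta regions, 9 were present in all libraries, at or near Trbv1, Trbv2, Trbv5, Trbv11, Trbv12-1, Trbv12-2, Trbv19, Trbv20 and Trbv23. In donor Tconv alone there were 7 of 37 Trb regions (18.9%) against donor Treg, near the 19.9% of all merged regions, and 5 of 39 (12.8%) against host Tconv, with 4.4% of all. Trbv13-2, a V beta segment, had peaks in both host Tconv libraries and neither host pTreg library.

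The D, J and C beta part held 3 regions, all with a peak in every library. The one over Trbd1 covered 902 to 1249 bp over the 12 libraries. The widest (chr6:41539808-41547933) ran from Trbd2 over the Trbj2 segments to Trbc2. It covered 3484 and 3368 bp in donor Treg, against 7135 and 5796 bp in donor Tconv. It covered 2664 and 1719 bp in host pTreg and 1457 and 1752 bp in host tTreg, against 1685 and 6629 bp in host Tconv, and 3425 and 4956 bp in iTreg. As at Trac, the donor groups did not overlap and the host Tconv libraries differed strongly from each other. The last, 2012 bp from Trbv31, covered 1781 to 2728 bp; the beta enhancer is known to lie between the C beta segments and Trbv31 and is not annotated in the files.

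The stretch between the V beta segments and Trbd1, which also holds trypsin genes, had a region 27448 bp from Trbd1 (chr6:41504901-41505753) with peaks in all libraries but those of host Tconv. It covered 150 and 231 bp in iTreg, 540 and 670 bp in donor Treg, 780 and 555 bp in donor Tconv, 685 and 534 bp in host pTreg, 216 and 739 bp in host tTreg and 0 bp in both host Tconv libraries. Of the 4 regions there, 2 were in donor Tconv alone against donor Treg, with 19.9% of all merged regions.

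The gamma cluster had the most peaks per 10000 in iTreg. It had 2.4 and 2.53 peaks per 10000 in iTreg, 1.24 and 1.45 in donor Treg, 1.7 and 1.58 in donor Tconv, 1.85 and 1.82 in host pTreg, 0.704 and 1.4 in host tTreg, and 1.08 and 1.57 in host Tconv. Both iTreg values were above all others. This ranking was not recomputed with lists of equal length, and the iTreg lists were the longest. Set against donor Treg, which were sorted by the same surface markers but formed in vivo, iTreg alone had 10 of 16 Trg regions (62.5%). Over all loci iTreg alone had 62 of 181 (34.3%), near the 34.7% of all merged regions, and donor Treg alone had 6 of 181, where 2.92% of all did. Lists of equal length left 9 of 74 members in iTreg alone (12.2%, with 13.9% of all) and 21 in donor Treg alone (28.4%, with 12.6% of all).

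In iTreg and in no other library, 6 of the 16 Trg regions had peaks (37.5%, against 16.5% of all merged regions for this pattern, chosen after its values were seen). They included the V segments Trgv2 (604 and 755 bp) and Trgv1 (648 and 660 bp), and regions 7511 bp and 19218 bp from the constant segment Trgc2. With a peak in every library were a region at Trgv6 and one in Gm31887, 2115 bp from Trgv4. A region 3032 bp from the constant segment Trgc1 had peaks in both iTreg, both donor Tconv and both host pTreg libraries, in 1 host tTreg and 1 host Tconv library, and in no donor Treg library.

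The heavy chain locus had peaks in all T cell groups, chiefly over V segments. Of 81 regions, 71 lay among the V segments, and 44 of those overlapped one. Its peaks per 10000 were 7.88 and 8.86 in iTreg, 6.83 and 7.54 in donor Treg, 11.4 and 9.92 in donor Tconv, 10.8 and 7.91 in host pTreg, 5.63 and 6.98 in host tTreg, and 6.48 and 8.55 in host Tconv. Donor Treg was below donor Tconv in both libraries, while host pTreg and host tTreg each overlapped host Tconv. The 10 V regions present in all libraries were at or nearest to Ighv14-2, Ighv1-9, Ighv1-10, Ighv1-11, Ighv1-12, Ighv1-46, Ighv1-47, Ighv1-67, Ighv1-69 and Gm6105. At Ighv1-12 (chr12:114615082-114616361) the length was 885 and 787 bp in donor Treg and 985 and 1009 bp in donor Tconv, 935 and 805 bp in host pTreg and 424 and 395 bp in host tTreg, and 961 and 1032 bp in host Tconv.

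**Figure D5:**
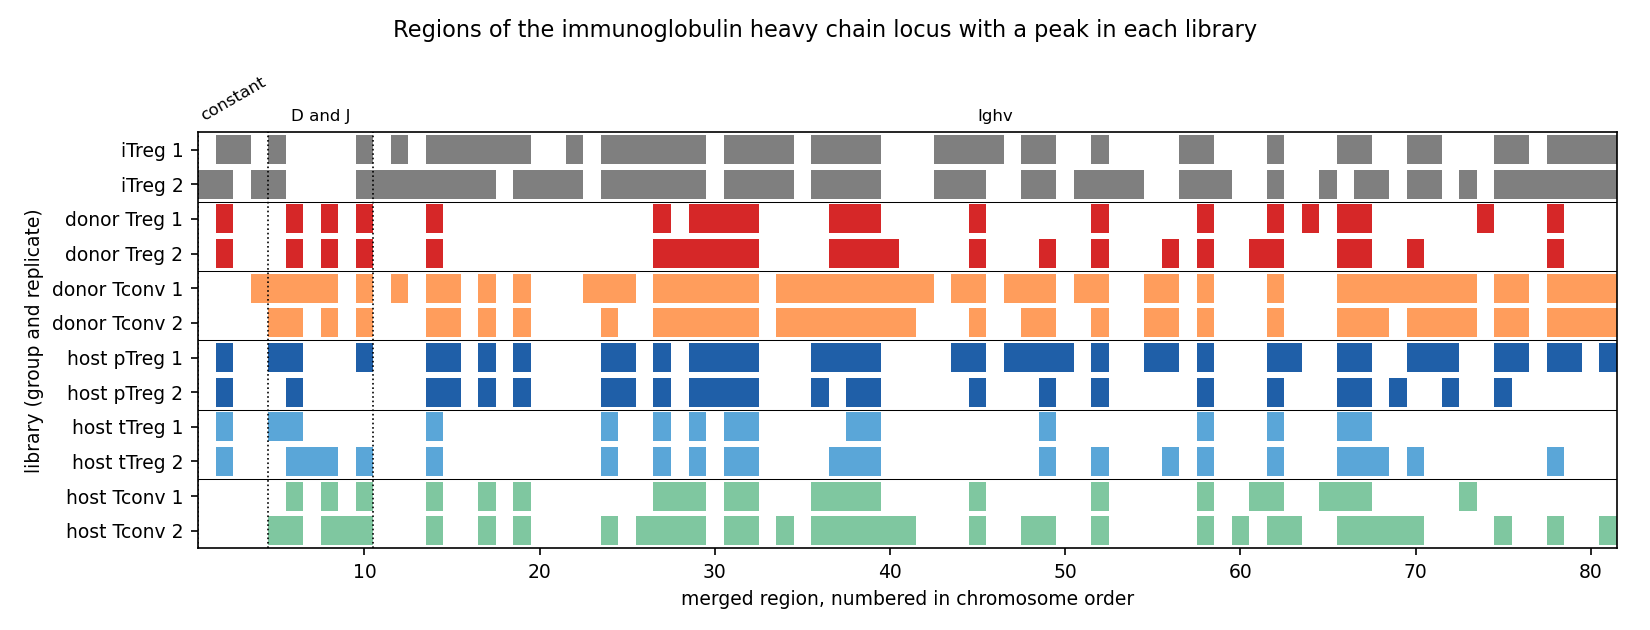
Presence of a peak (filled block) in each library (rows) at the 81 merged regions of the heavy chain locus, in chromosome order from the constant segments to the V segments (columns, not to genomic scale). The second region, near Ighg3, is filled in all 8 regulatory libraries and in none of the 4 conventional ones.

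Host pTreg set against host tTreg asks what separates the Nrp1- from the Nrp1+ regulatory cells, within run code DR31. In host pTreg alone there were 11 of 114 members (9.65%, with 3.35% of all merged regions), and 9 of these lay among the 39 V heavy regions tested. In host tTreg alone there were 0 members, with 0.452% of all regions. The V heavy regions included Ighv1-54 (412 and 318 bp in host pTreg, 0 bp in host tTreg), Ighv9-4 (273 and 326 bp in host pTreg, 0 bp in host tTreg), Ighv1-42, Ighv14-3 and Ighv1-5. Ighv9-4, Ighv1-42 and Ighv14-3 also had peaks in both iTreg and both donor Tconv libraries and in no donor Treg library. Host tTreg replicate 1 had the shortest list of all, at 28394 peaks. Cut to that length, the lists left 3 members in host pTreg alone (4.17%, with 2.38% of all) and 1 in host tTreg alone.

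Donor Treg set against host pTreg compares regulatory cells formed from transferred cells with the Nrp1- regulatory cells of the host, across run codes. In donor Treg alone there was 1 of 119 members (2.09% of all merged regions), a region 1654 bp from the D segment Ighd3-2. In host pTreg alone there were 11 (4.33% of all), of which 8 lay among V heavy segments and 2 were the J alpha regions at Traj40 and Traj3. Lists of equal length left 4 of 75 members (5.33%) in each group alone, with 3.49% of all in donor Treg and 3.66% in host pTreg.

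Around the D, J and constant heavy segments, the region 784 bp from Ighj4 (chr12:113427360-113427730) had peaks in all 10 in vivo libraries, of 243 to 350 bp, and in neither iTreg library. The intronic heavy chain enhancer is known to lie between the J segments and the constant mu segment and is not annotated in the files. The region 1180 bp from the constant segment Ighg3 (chr12:113362412-113362931) covered 495 and 515 bp in iTreg, 234 and 229 bp in donor Treg, 363 and 324 bp in host pTreg, 229 and 275 bp in host tTreg, and 0 bp in donor Tconv and host Tconv. It was the member whose presence followed the regulatory label in all 12 libraries in that direction.

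The kappa locus was nearly closed, with 8 regions in all and peaks over 1 of 102 V segments, in iTreg only. The 2 regions present in every library lay 7909 bp from Igkj1 and 5082 bp from Igkv3-1, the first over and the other near the uncharacterised gene Gm46961. A region 442 bp from the constant segment Igkc had peaks in both iTreg libraries and in 1 each of donor Treg, host pTreg and host tTreg, and in no conventional library.

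Over all 12 libraries, peak presence at each region was compared by Fisher's exact test, two-sided, between the 8 regulatory and the 4 conventional libraries, with Benjamini-Hochberg adjustment over the 18887 merged regions that could reach significance. Of 81 members tested, 1 was called more often in regulatory libraries (1.39% of all regions tested) and 5 in conventional ones (4.98% of all). The first was the Ighg3 region, with peaks in 8 of 8 regulatory and 0 of 4 conventional libraries. The 5 were Trav14n-3, the region 564 bp from Trav17, the region 1 bp from Trav20, the region in Gm30392 and that 754 bp from Trdv5, each in 0 of 8 regulatory and 4 of 4 conventional libraries. For all 6 the exact p was 0.00202, the smallest that 8 against 4 can give, and the adjusted p was 0.0317. Leaving out 1 library at a time gave adjusted p values between 0.0413 and 0.0667 for them, above 0.05 in 9 of 12 cases.

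Without the iTreg libraries, 6 in vivo regulatory libraries set against the 4 conventional ones gave 2 and 16 calls among 80 members tested, with 3.35% and 21.5% of all regions tested. The share in conventional libraries, 16 of 80, was near that background. The call added in the regulatory direction was the Traj16 and Traj15 region, with an adjusted p of 0.0192 by the same Fisher's exact test and peaks in 6 of 6 and 0 of 4 libraries. The 4 donor libraries set against the 6 host libraries gave 0 calls in either direction by Fisher's exact test, with 0 members at an unadjusted p under 0.05 either way and 0 calls among all 17531 regions tested (0% of all).

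Genes of the receptor complex that partners with these chains had regions in every group. Of 9 listed genes, 8 had at least 1 region, and Ptcra, the surrogate alpha chain of immature thymocytes, had none. Their regions with a peak numbered 38 and 38 in iTreg, 30 to 35 in donor Treg, 36 and 36 in donor Tconv, 34 to 36 in host pTreg, 28 to 35 in host tTreg, and 36 and 36 in host Tconv. Per 10000 peaks the order differed, with 6.01 to 6.51 in iTreg, 9.31 to 10.2 in donor Treg, 7.63 to 8.12 in donor Tconv, 9.49 to 10.3 in host pTreg, 9.77 to 9.86 in host tTreg and 8.1 to 9.72 in host Tconv. The counts below are likewise not scaled to list length. Markers of other cells were counted beside the loci those cells use. Regions at 12 of 14 B cell genes numbered 28 to 32 in iTreg, 8 to 9 in donor Treg, 14 to 17 in donor Tconv, 9 in each host pTreg, 7 to 12 in host tTreg and 9 to 12 in host Tconv. Cd79a and Vpreb1 had none in any library.

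Gamma delta T cell genes, all 6 with a region, had 19 to 22 in iTreg, 9 to 12 in donor Treg, 16 to 18 in donor Tconv, 10 to 19 in host pTreg, 8 to 12 in host tTreg and 10 to 14 in host Tconv. One of the 6, the constant gamma gene, is itself a member. Sox13, a transcription factor of that lineage, had 4 and 6 regions with a peak in iTreg, 0 and 0 in donor Treg, 4 and 3 in donor Tconv, 1 and 0 in host pTreg, 0 and 0 in host tTreg, and 2 and 3 in host Tconv. Other genes of that list did not follow it, as Maf, a transcription factor, had 1 and 1 in iTreg, 3 and 5 in donor Treg, 4 and 4 in donor Tconv, 4 and 4 in host pTreg, 3 and 4 in host tTreg, and 2 and 2 in host Tconv. Cd8a, the marker of CD8 T cells, which a CD4+ sort should remove, had 3 and 2 in iTreg, 2 and 3 in donor Tconv, 2 and 2 in host Tconv and 0 in every in vivo regulatory library. Rag1, a subunit of the recombinase, had 3 and 3 in iTreg, 2 and 2 in donor Tconv and 0 and 2 in host Tconv, and none in the in vivo regulatory libraries. Rag2, the other subunit, had 1 in each iTreg, donor Treg and donor Tconv library, 0 and 0 in host pTreg, 0 and 1 in host tTreg, and 1 and 1 in host Tconv. The whole list of 6 recombination and progenitor genes had 25 to 26 regions with a peak in iTreg, 12 to 14 in donor Treg, 19 to 21 in donor Tconv, 10 in each host pTreg, 6 to 12 in host tTreg and 14 to 20 in host Tconv. Both CD8 T cell genes together had 6 to 7 in iTreg, 1 in each donor Treg, 6 to 8 in donor Tconv, 1 in each host pTreg, 0 to 1 in host tTreg and 5 in each host Tconv. Plasma cell genes, of which 4 of 5 had a region and Mzb1 none, had 11 to 14 in iTreg, 4 in each donor Treg, 8 to 9 in donor Tconv, 4 to 6 in host pTreg, 4 to 7 in host tTreg and 4 to 6 in host Tconv. NK cell genes, of which 4 of 5 had a region and Klra8 none, had 10 to 12 in iTreg, 8 in each donor Treg, 10 to 13 in donor Tconv, 7 to 12 in host pTreg, 5 to 7 in host tTreg and 8 to 12 in host Tconv. Per 10000 peaks, both iTreg libraries were above all others only for the B cell list, with 4.8 to 5.06 against 3.6 or less. NK cell genes then had 1.71 to 1.9 in iTreg, 2.32 to 2.48 in donor Treg and 2.25 to 2.75 in donor Tconv. They had 2.13 to 3.16 in host pTreg, 1.76 to 1.95 in host tTreg and 2.16 to 2.7 in host Tconv. Recombination and progenitor genes had 4.11 to 4.28 in iTreg, 4.28 to 4.45 in donor Tconv and 3.78 to 4.5 in host Tconv. Among in vivo libraries, Rag1, Cd8a and Sox13, singled out after their values were seen, had more regions with a peak in donor Tconv than in donor Treg, as did the delta and V alpha parts. In iTreg these genes were high and the delta part had 0 and 1 regions. The part of other cells in those results was not tested.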

How the data were processed

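ATAC-seq measured accessible chromatin in 6 groups of 2 libraries, with a peak list for each. The submitters' processing notes name the mm10 build, HOMER 4.10, bedtools and Bowtie2 2.3.3. The sources used here do not state their roles or settings, the shift of reads for the transposase, or the number of reads, so depth is unknown and no signal height was used. All deposited peaks carry the score 1000, which was not used; the deposited coordinates of the 496365 peaks are the measurement. No peak was under 150 bp.

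Groups come from the sample titles. Peaks sharing 1 bp or more were merged with Python 3.11.15 (numpy 2.4.6, pandas 2.3.3), and regions inside the 5 loci were kept. A region was assigned to the V, D, J or constant part by the span of the segments in the RefSeq table of GRCm38.p6, and named by the segment or gene it overlaps, else by the nearest one with its distance. The table is of strain C57BL/6J, whereas the cells were Balb/c. Marker regions were assigned to a gene that held them or lay within 50 kb. Presence was compared by counts and by Fisher's exact test (scipy 1.17.1) at an adjusted p of 0.05, tested on simulated data first. The p-values measure only the spread between these libraries, which may be technical. Members, lists and tests were chosen with earlier results of these data known. Regions named are those at D, J or C segments with peaks in 4 or more libraries, V regions with peaks in all 12, up to 10 per comparison and direction by widest mean peak, every region past the threshold, and receptor complex genes; others named were chosen after their values were seen. Alternatives were lists of equal length, merging at 100 bp, other denominators, a replicate block and leaving out libraries.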

Additional observations from a re-analysis of the deposited data

Results flagged for a closer look

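At 2 places the donor and host groups moved in opposite directions under the same contrast, in peaks per 10000 peaks. At the gamma locus, donor Treg minus donor Tconv was -0.295 and host pTreg minus host Tconv was 0.51, so the effects differed by 0.805. Host tTreg did not share this, with 0.704 and 1.4 at that locus, overlapping the 1.08 and 1.57 of host Tconv. The in vivo libraries held only 2 to 8 peaks each at the gamma locus. Between the V beta segments and Trbd1, donor Treg minus donor Tconv was -0.42. There host pTreg minus host Tconv was 0.324, a difference in effect of 0.744, and host tTreg minus host Tconv was 0.203, a difference of 0.623. That stretch held only 1 and 2 peaks in host pTreg, 1 and 1 in host tTreg and 0 and 1 in host Tconv. Donor Treg had 2 and 1 there and donor Tconv 4 and 4. Replicate 2 of host tTreg and of host Tconv each held 1 peak, so these libraries differed only by list length. In each case with a difference in effect given, every library of the one contrast lay on the opposite side from those of the other. These differences were not tested, and the donor and host contrasts also differ in run code. Groups of 2 libraries were not examined for outlying samples.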

How the results depend on the processing

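The lists hold no read counts, so what depth limits could be examined only through list length. With each list cut to its 28394 widest peaks, regions in one group alone numbered 7 in donor Treg and 16 in donor Tconv, 8 in donor Tconv and 4 in host Tconv, 11 in host pTreg and 9 in host Tconv, and 8 in host tTreg and 8 in host Tconv. They numbered 3 in host pTreg and 1 in host tTreg, 4 in donor Treg and 4 in host pTreg, and 9 in iTreg and 21 in donor Treg, so that the order turned for iTreg against donor Treg and for host pTreg against host Tconv and the excess was gone for host tTreg and for donor Treg against host pTreg. Delta regions in donor Tconv alone fell to 1 against donor Treg and 0 against host Tconv, and V alpha regions in host Tconv alone to 6 against host pTreg and 5 against host tTreg. Fisher calls were then 0 regulatory and 3 conventional. Peaks per 10000 in Tra/Trd were 3.7 in iTreg, 5.63 in donor Treg, 8.63 in donor Tconv, 4.93 in host pTreg and 7.22 in host Tconv, so the regulatory means stayed below the conventional ones. In Trb they were 4.75 in iTreg, 6.16 in donor Tconv, 5.81 in host pTreg and 6.16 in host Tconv, and in Igh 2.82 in iTreg, 4.75 in donor Treg, 5.63 in donor Tconv, 6.34 in host pTreg, 4.23 in host tTreg and 4.23 in host Tconv. Covered length in Tra/Trd was 377 in iTreg and 1002 in donor Tconv per 1000000 bp. Shorter lists hold fewer narrow peaks by construction; beyond that the cause was not tested.

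Counting only peaks over 1 kb from gene ends in the denominator gave 9.64, 9.61, 20.2, 9.66, 8.67 and 16.2 in Tra/Trd for iTreg, donor Treg, donor Tconv, host pTreg, host tTreg and host Tconv. In the same order Trb had 6.83, 10.5, 9.3, 9.14, 9.22 and 8.93, and Igh 10.7, 10.5, 14.2, 13.4, 9.34 and 10.3. Per 10000 merged regions, Tra/Trd had 11.2 in host Tconv, and Trb 5.08 in iTreg, 6.65 in donor Treg, 6.01 in host pTreg and 6.14 in host Tconv. Merging at 100 bp left all 30 results computed that way the same. For counts this means within 1.5 times, and for single regions a call in the same direction.

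Without the iTreg libraries Fisher calls were 2 regulatory and 16 conventional. With the replicate block they were 0 and 0, with an adjusted p of 0.0791 for each of the 6 regions; donor against host stayed at 0. The numbers pair nothing in the labels. Differences in peak presence between replicates 1 and 2 of a group correlated with those of another group at -0.131 to 0.057, over 15 pairs of groups. Leaving out 1 library gave 0 to 1 regulatory and 0 to 14 conventional calls, and 0 for donor against host. Regions in one group alone then numbered 3 to 7 in donor Treg and 75 to 100 in donor Tconv, 34 to 59 in donor Tconv and 3 to 8 in host Tconv, 10 to 24 in host pTreg and 24 to 43 in host Tconv, 6 to 13 in host tTreg and 33 to 56 in host Tconv. They numbered 12 to 31 in host pTreg and 0 to 6 in host tTreg, 3 to 10 in donor Treg and 11 to 31 in host pTreg, and 66 to 90 in iTreg and 6 to 12 in donor Treg. V alpha regions in host Tconv alone numbered 16 to 25 against host pTreg and 22 to 30 against host tTreg. Delta regions in donor Tconv alone numbered 11 to 13 against donor Treg and 8 to 10 against host Tconv.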
